A study of Mus musculus with 8 samples.

Results

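The ganglia on the uninjured side of mice with a ligated spinal nerve were compared between days 3 and 7 and day 1 after surgery. The comparison rests on 3 of the study's 8 libraries, the contralateral (right) lumbar dorsal root ganglia at days 1, 3 and 7. Of 53801 genes in the count table, 13397 had at least 50 reads in the highest of these 3 libraries and were compared. The other 40404 were not. Per the labels, the left L4 spinal nerve of male C57BL/6J mice was exposed after removal of the left L5 transverse process and tightly tied, so the contralateral ganglia come from mice that had surgery on the other side. Ganglia L3 to L5 of 3 mice were pooled and homogenised whole for each library. Each contralateral library has a partner from the injured side of the same 3 mice, and only L4 of that side had its own nerve tied. The remaining libraries are the left and right ganglia of a pool labelled as having no injury. Their titles also carry WT, for wild type, which no other title does. Each day is 1 library from its own mice, so the day and the pool of mice cannot be told apart and a ratio between days has no replicate check.

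Total counts ran from 20488115 to 21652688 reads per library, so depth was nearly equal. Levels are given as CPM, the count scaled to library size, with TMM factors, and ratios as log2 ratios of CPM with a prior count of 2. No contralateral library stood far from the other 2: the chi-square per gene was 8.018 between days 7 and 3, 10.58 between days 3 and 1 and 11.08 between days 7 and 1. The lowest of any pair was 6.459, between the left and right no-injury libraries. Neuron and glia markers were high in each library, as the tissue label says: the summed level ran from 14859 to 18604 CPM for a list of pan-neuronal genes, from 3657 to 4690 CPM for satellite glia genes and from 4988 to 8659 CPM for myelinating Schwann cell genes. The label for sex went against the data in 1 pool. The no-injury libraries held 4931 and 4129 reads of the X-inactivation RNA Xist and 0 reads of the Y-linked gene Kdm5d, while the other 6 libraries held at most 3 Xist reads and 280 to 354 Kdm5d reads. The no-injury pool is used below as a reference level, also to divide the higher genes, and its left-right spread enters the error of both tests. The numbers of genes called in these tests are also given without it, and printed calls lost without it are named. Other p-values of single genes include it.

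In a dorsal root ganglion every sensory neuron body lies wrapped in satellite glia, together with Schwann cells, fibroblasts, vessels and resident macrophages. A neuron whose peripheral axon is tied or cut switches on a regeneration programme that includes the transcription factors ATF3 and JUN, the epithelial-type structural protein SPRR1A and the neuropeptides galanin and NPY. Ganglia of the opposite side keep their own axons and are the usual control within an animal.

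Relative to day 1, 49 of the 13397 genes were at least 2-fold higher at both later days on the contralateral side (0.366%), and 136 were at least 2-fold lower (1.02%). Both ratios of a gene share the day 1 library, so a gene past the limit on both days was measured once at day 1. At day 3 taken alone 64 genes were at least 2-fold higher (0.478%) and 223 lower (1.66%), and at day 7 taken alone 148 were higher (1.1%) and 162 lower (1.21%). The median log2 ratio over all 13397 genes was 0.02 at day 3 and 0.00 at day 7. Adamtsl1 and Tyrp1 lay just inside the limit for higher genes, with smaller log2 ratios of 1.01 and 1.06, and Zfp663 and Cbr2 just outside, at 0.99 and 0.97. Among the lower genes Nrgn and Tent5c were just inside, at -1.0 and -1.01, and Lrrc29 and Slc40a1 just outside, at -0.99 and -0.98.

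The change between the same days on the injured side ran the same way for most of the higher genes and not for most of the lower ones. On the injured side 302 of the same genes were at least 2-fold higher at both days (2.25%) and 78 lower (0.582%). Of the 49 genes higher on the contralateral side, 35 were also at least 2-fold higher at both days on the injured side, which is 71.4% of the contralateral list and 11.6% of the injured one. Both injured-side ratios were above 0 for 48 of the 49. Of the 136 lower genes only 9 were at least 2-fold lower at both days on the injured side, 6.62% of the contralateral list and 11.5% of the injured one, and 45 were at least 2-fold higher there. No gene was higher at both days on the contralateral side and lower at both days on the injured side.

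**Figure D1:**
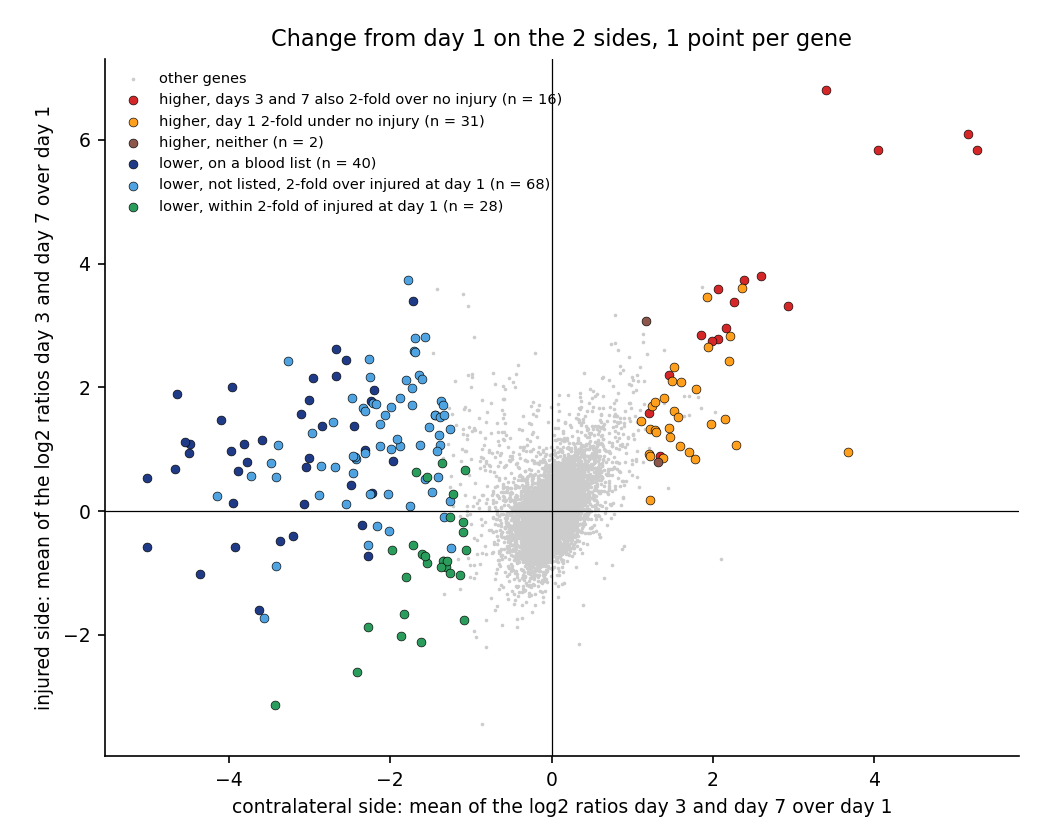
Each point is 1 of the 13397 genes, with the mean of its log2 ratios at days 3 and 7 over day 1 on the contralateral side (x axis) and on the injured side (y axis). Coloured points are the 49 genes higher and the 136 genes lower at both days, by class. The higher genes lie in the upper right, while most of the genes on a blood list lie in the upper left, lower on the contralateral side and higher on the injured side.

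Days 3 and 7 were also treated as 2 libraries of a late state and tested against the lone day 1 library with edgeR's quasi-likelihood test over all 8 libraries, with Benjamini-Hochberg adjustment over 17286 genes. In this test 40 genes rose (0.231%) and 76 fell (0.44%). Both injured-side ratios were above 0 for all 40 genes that rose, and both were below 0 for 37 of the 76 that fell. The share of all tested genes with both ratios above or below 0 is not given, so nothing is read from these counts. The error in this test is the spread between days 3 and 7 on each side and between the 2 no-injury libraries. It mixes differences between pools with left-right differences within 1 pool and has no block for the pools. Its p-values reflect only the spread of these libraries, which may be technical, and the day 1 library is assumed to vary like the others. Without the no-injury libraries 25 genes rose and 89 fell, and 22 of the 40 and 58 of the 76 were among them. Without the contralateral day 3 library 84 rose and 40 fell, and without the day 7 library 45 rose and 54 fell.

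The higher genes fell into 2 main classes by their level in the no-injury libraries, a division made after the values were seen. In 16 of the 49, days 3 and 7 were both at least 2-fold above the no-injury mean. In 31 the day 1 library was at least 2-fold below the no-injury mean. The other 2 were Draxin, a secreted axon guidance protein, and Rlbp1, a retinaldehyde-binding protein.

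The first class includes 5 genes of the injury and neuropeptide lists, Sprr1a, Ecel1, Nts, Gal and Npy. Its 16 members are Sprr1a, Gal, Npy, Nts, Ecel1, Gpr151, Cckbr, Anxa10, Lipn, Lmo7, Slc6a4, Kcnk16, Igfn1, Tyrp1, Wfdc3 and the predicted gene Gm47595. The median log2 ratios were 2.60 and 2.01 on the contralateral side, for days 3 and 7 in turn, and 3.10 and 3.47 for the injured ganglia. All but Tyrp1, 15 of the 16, were also at least 2-fold higher at both days on the injured side. In 14 of the 16 the injured-side level was at least 2-fold above the contralateral level at both later days. The share of all genes that met this is not given, so nothing is read from that count. Putting Lipn, the 1 gene with 0 reads at day 1, at 3 reads left both contralateral medians at the same values.

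Of the 14 members with a promoter entry in RefSeq, 4 (28.6%) carry the motif TGANTCA, the core bound by AP-1 factors such as JUN, in the 250 bases before the start site. The pattern reads the same on both strands, so both were searched. Counted by gene, at least 1 entry holds it for 2113 of all 27025 genes with a RefSeq promoter entry (7.82%), whether compared here or not. The counts were 7 of the 37 matched among the 49 higher genes (18.9%) and 10 of the 100 matched among the 136 lower genes (10%). Such a match is a description of these letters and no test was made. The 6 matches are shown because these genes moved together on both sides. Each runs 5′ to 3′ on the gene's strand in GRCm38.p6 with the motif in capitals.
Sprr1a, chr3:92485991-92486057, minus strand: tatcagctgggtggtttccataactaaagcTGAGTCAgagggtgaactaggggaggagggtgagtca
Sprr1a, chr3:92485961-92486027, minus strand: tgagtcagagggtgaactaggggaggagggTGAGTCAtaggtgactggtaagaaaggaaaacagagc
Nts, chr10:102490589-102490655, minus strand: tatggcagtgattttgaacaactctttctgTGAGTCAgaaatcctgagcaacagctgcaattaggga
Lipn, chr19:34067180-34067246, plus strand: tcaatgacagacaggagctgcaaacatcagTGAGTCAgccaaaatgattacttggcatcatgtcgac
Anxa10, chr8:62123337-62123403, minus strand: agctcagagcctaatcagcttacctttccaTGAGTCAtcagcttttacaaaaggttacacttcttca
Anxa10, chr8:62123194-62123239, minus strand: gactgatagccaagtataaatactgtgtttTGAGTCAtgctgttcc
The 2 stretches of Sprr1a overlap, and its motif copies end 139 and 109 bases before the start site.

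Sprr1a, the regeneration-associated structural protein, had the widest range. On the contralateral side it stood at 3.51 CPM at day 1, 128 CPM at day 3 and 129 CPM at day 7. The injured side held 9.32, 458 and 912 CPM at the same days, and the no-injury libraries 0.143 and 0.325 CPM. The contralateral CPM ratio over day 1 was 36.6 at day 3 (exact 95% interval 29.1 to 46.6) and 36.8 at day 7 (29.2 to 46.9). These intervals, here and below, cover counting error only. The 2 later contralateral libraries thus lay above day 1 and the no-injury libraries and below both later injured ones. In edgeR's test Sprr1a was not called (log2 5.19 ± 0.80 SE, adjusted p = 0.202).

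Among the listed injury neuropeptides, Gal, Npy and Nts gave the same order of libraries. Gal, which encodes galanin, stood at 22.0, 135 and 82.9 CPM in contralateral ganglia at days 1, 3 and 7, compared with 47.3, 457 and 534 CPM on the injured side and 8.27 and 10.3 CPM without injury. Npy, neuropeptide Y, stood at 0.889, 14.3 and 18.3 CPM, against 1.3, 49.7 and 126 CPM on the injured side and 0 and 0.836 CPM without injury. Neither was called by edgeR (adjusted p = 0.24 for Gal and 0.502 for Npy). Nts, which encodes neurotensin, stood at 10.8, 41.1 and 38.0 CPM on the contralateral side, 17.4, 119 and 135 CPM on the injured side, and 7.22 and 7.71 CPM without injury. Its 2 later contralateral libraries lay close together, and Nts rose by 1.87 ± 0.12 (log2 ± SE, edgeR adjusted p = 5.78e-05). Of the 7 listed injury neuropeptides with enough reads, Gal, Npy and Nts were past 2-fold at both days. The list's median log2 ratio was 0.26 at day 3 and -0.26 at day 7 on the contralateral side. Crh, corticotropin-releasing hormone, had under 50 reads in each contralateral library. It stood at 0.281, 1.90 and 1.64 CPM and rose in the edgeR test (log2 2.63 ± 0.49, adjusted p = 0.0374), a call lost without the day 3 library (0.0813), the day 7 library (0.0595) or the no-injury libraries (0.059).

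Receptors, a transporter and a channel of the class were low at day 1 and higher on both sides later. Ecel1, a membrane endopeptidase of injured neurons, stood at 2.48, 17.6 and 21.6 CPM on the contralateral side and at 8.32, 61.1 and 115 CPM on the injured side, against 0.430 and 0.418 CPM without injury. Gpr151, an orphan receptor, stood at 9.59, 33.3 and 20.9 CPM, against 25.6, 111 and 125 CPM on the injured side. Cckbr, the cholecystokinin B receptor, stood at 1.64, 6.56 and 7.76 CPM, against 4.88, 26.7 and 43.2 CPM. All 3 were higher on the injured side than on the contralateral side at each day.

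Slc6a4, the serotonin transporter, stood at 1.73, 11.4 and 7.85 CPM on the contralateral side, 3.39, 41.1 and 52.7 CPM on the injured side and 0.191 and 0.418 CPM without injury. It rose in the edgeR test (log2 2.47 ± 0.36, adjusted p = 0.0439), a call lost without the no-injury libraries (0.0668). Kcnk16, a background potassium channel, stood at 0.982, 7.03 and 3.18 CPM, with 2.09, 16.6 and 17.4 CPM on the injured side. Lmo7, a junction-associated adaptor protein, stood at 10.5, 49.6 and 35.3 CPM, with 25.5, 158 and 186 CPM on the injured side and 8.31 and 9.38 CPM without injury.

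A further pair of members was nearly silent at day 1. Lipn, a lipase family member, had 0 reads in the contralateral day 1 library and in both no-injury libraries. It stood at 4.61 CPM at day 3 and 2.76 CPM at day 7, at least 32.8-fold and 19.7-fold higher than 3 reads in the day 1 library, and at 0.249, 17.7 and 21.6 CPM on the injured side. Lipn rose in the edgeR test (adjusted p = 0.00788). Anxa10, an annexin, had 3 reads at day 1 (0.140 CPM) and stood at 1.52 and 3.74 CPM later. That is a CPM ratio of 10.8 at day 3 (exact 95% interval 3.39 to 55.3) and 26.7 at day 7 (8.8 to 132), with 8.59 and 29.7 CPM on the injured side at those days.

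The wider injury and regeneration list did not follow these genes. Of its 31 members with enough reads, Sprr1a, Ecel1 and Nts were past 2-fold at both days and none was lower, and the list's median log2 ratio was 0.28 at day 3 and -0.08 at day 7. Of the 31, 9 were past 2-fold on the injured side and its medians were 0.65 and 0.52. Atf3, the factor most used to mark injured neurons, stood at 125, 170 and 109 CPM on the contralateral side, against 473, 618 and 616 CPM on the injured side and 10.8 and 11 CPM without injury. It was thus already above no injury at day 1 on both sides, and its later contralateral levels lay on either side of that of day 1 (adjusted p = 0.918). Jun stood at 150, 145 and 121 CPM. Csf1, a macrophage growth factor made by injured neurons, stood at 31.1, 58.0 and 45.4 CPM, with 59.3, 176 and 204 CPM on the injured side (contralateral adjusted p = 0.13). Stmn4, a microtubule-binding stathmin, stood at 24.4, 45.4 and 41.3 CPM and rose by 0.83 ± 0.12 on the log2 scale (adjusted p = 0.0121).

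**Figure D2:**
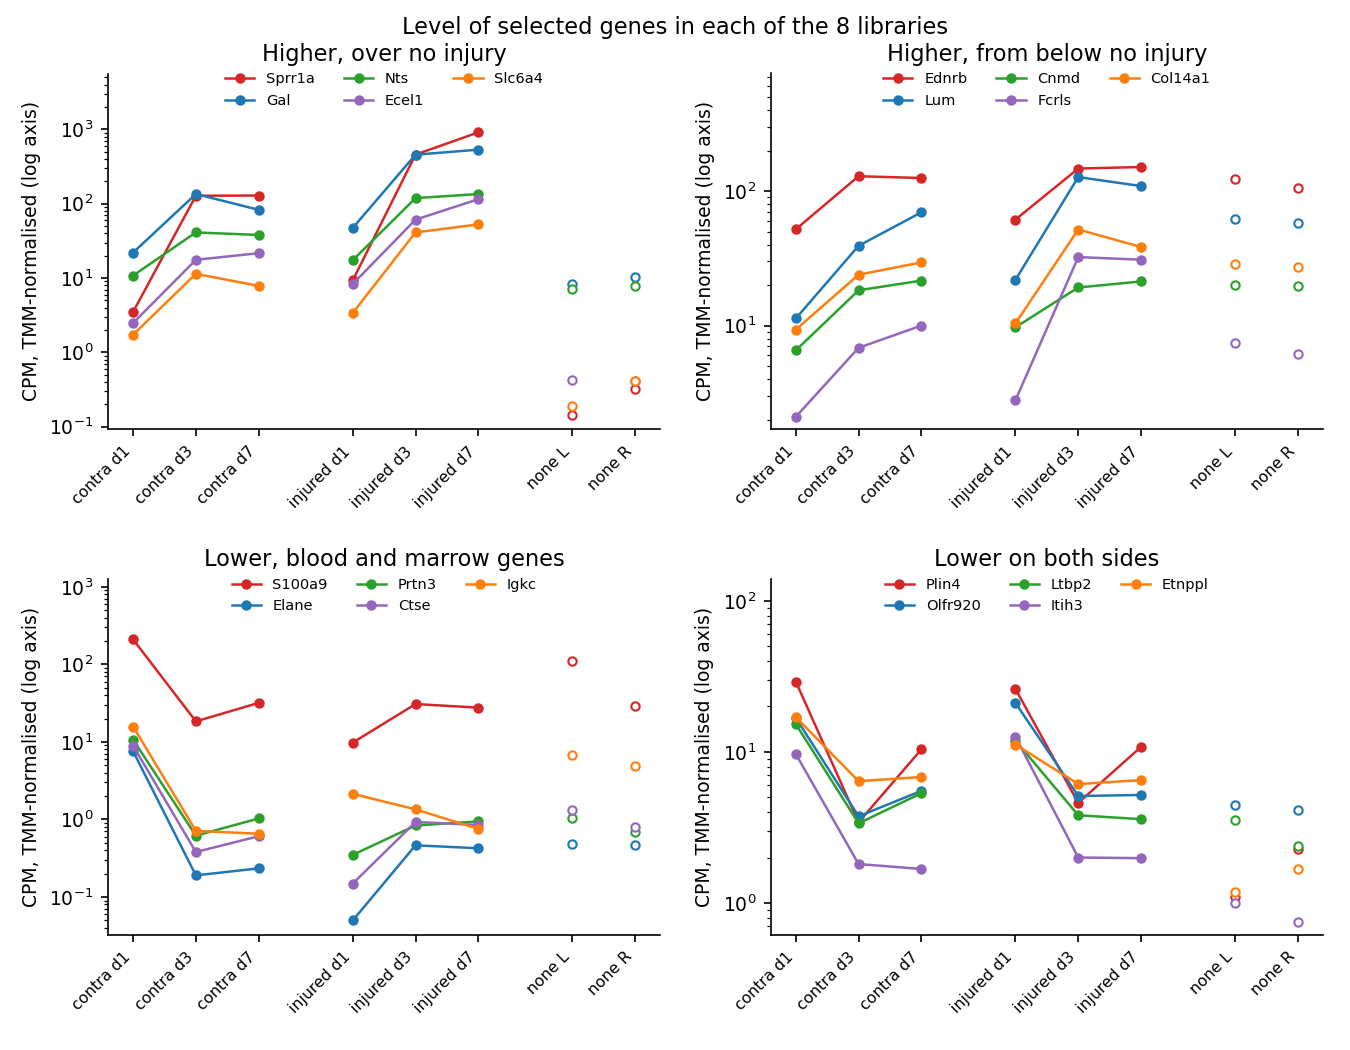
CPM (log axis) of 5 genes from each of 4 groups, 1 point per library: contralateral and injured sides at days 1, 3 and 7 joined by lines, and the left and right no-injury libraries as open points. In the first panel the later contralateral libraries lie between day 1 and the injured side, and in the second they lie nearer the no-injury level than day 1 does. The lower panels show genes that were high in the contralateral day 1 library alone among the operated sides (left) or on both sides at day 1 (right).

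The second class was low at day 1 and near the no-injury level later. Relative to the no-injury mean, the 31 genes had a median log2 ratio of -1.64 at day 1, -0.36 at day 3 and 0.08 at day 7 on the contralateral side. For 28 of them the contralateral day 1 library was the lowest of the 8, a count that the choice of higher genes raises. The choice of this class sets the sign of the contralateral day 1 median. The injured day 1 library was below both no-injury libraries for 30 of the 31, with a median of -1.07. It is set against the same no-injury libraries that chose the class, which raises that count and lowers that median. Of the 31, 19 were also at least 2-fold higher at both later days on the injured side. Over all 13397 genes, 192 were at least 2-fold below no injury at contralateral day 1 (1.43%), a share that the choice of higher genes raises among these.

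Collagens and other matrix genes of fibroblasts were among them. Lum, the matrix proteoglycan lumican, stood at 11.3, 39.2 and 69.5 CPM on the contralateral side, 21.9, 127 and 109 CPM on the injured side, and 61.8 and 58.0 CPM without injury. Col3a1, type III collagen, stood at 35.7, 75.2 and 140 CPM, against 87.6, 302 and 241 CPM on the injured side and 221 and 166 CPM without injury. Contralateral day 1 was the lowest of the 8 libraries for both. Postn, Col15a1, Loxl2 and Col14a1 showed the same order on the contralateral side. Col14a1 rose by 1.51 ± 0.23 (adjusted p = 0.0476), a call lost without the day 7 library (0.0703) or without the no-injury libraries (0.135). Lum and Col3a1 were not called (adjusted p = 0.291 and 0.502). Of the 24 matrix and fibroblast genes with enough reads, 5 were higher at both days and none lower, and 13 were at least 2-fold below no injury at day 1. The list's median log2 ratio was 0.40 at day 3 and 0.64 at day 7, against 1.31 and 0.79 on the injured side.

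Ednrb, the endothelin B receptor of satellite glia and Schwann cells, had the clearest change among the abundant genes of this class. It stood at 52.0 CPM at day 1, 129 CPM at day 3 and 125 CPM at day 7 on the contralateral side, at 61.4, 147 and 151 CPM on the injured side and at 122 and 106 CPM without injury. Both day 1 libraries lay below the other 6. Ednrb rose by 1.29 ± 0.09 (adjusted p = 7.41e-05), and the injured change minus the contralateral change was -0.01 ± 0.13. It was the 1 of 16 satellite glia genes past 2-fold at both days, and the list's medians were 0.07 and 0.19. Ptn, the growth factor pleiotrophin, had the same pattern under the 2-fold limit: 88.9, 132 and 148 CPM on the contralateral side, 87.1, 134 and 144 CPM on the injured side and 154 and 145 CPM without injury (log2 0.65 ± 0.09, adjusted p = 0.00691).

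Cnmd, which encodes chondromodulin, stood at 6.55, 18.3 and 21.6 CPM on the contralateral side, 9.72, 19.2 and 21.3 CPM on the injured side, and 19.9 and 19.7 CPM without injury (log2 1.61 ± 0.15, adjusted p = 0.000483). Fcrls, a marker of microglia and some resident macrophages, stood at 2.10, 6.84 and 10 CPM, with 2.79, 32.3 and 30.9 CPM on the injured side and 7.41 and 6.17 CPM without injury (log2 2.00 ± 0.26, adjusted p = 0.00944). Cfd, the complement factor D secreted by fat cells, had 5 reads at contralateral day 1 and stood at 0.234, 3.37 and 5.00 CPM, with 1.40, 2.92 and 2.64 CPM on the injured side and 4.30 and 4.87 CPM without injury. Its CPM ratio over day 1 was 14.4 at day 3 (exact 95% interval 5.9 to 45.8), and it rose by 4.13 ± 0.46 (adjusted p = 0.00174). Of the 5 adipocyte genes with enough reads, Cfd was higher at both days and Plin4 was lower.

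Skeletal muscle genes were also in this class, but stood higher mainly at day 7. Tnnc2 and Tnni2, troponin subunits of fast skeletal muscle, were the 2 of 14 listed muscle genes with enough reads that were past 2-fold at both days. At day 7 alone 12 of the 14 were, and the list's median log2 ratio was 0.55 at day 3 and 2.71 at day 7. The injured side gave nearly the same medians, 0.63 and 2.59. Ckm, muscle creatine kinase, stood at 2.57, 3.52 and 17.5 CPM on the contralateral side and 3.24, 4.41 and 19.2 CPM on the injured side, but at 19.5 CPM in the left and 186 CPM in the right no-injury library. The summed level of the list was 129, 117 and 263 CPM on the contralateral side, 110, 110 and 244 CPM on the injured side, and 383 and 1891 CPM without injury. Pvalb, a member of this list, is also on the large-fibre neuron list, so the sum is not a level of muscle alone. No muscle gene was called by edgeR. Muscle is not part of a ganglion, and its part in the other differences of day 7 was not tested.

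The lower genes include many genes of blood and bone marrow that stood high in the contralateral day 1 library. Of the 136, 40 are on 1 of 7 lists of blood cell genes, against 68 of all 13397 genes. A further 68 are on none of these lists but were at least 2-fold higher in the contralateral than in the injured library at day 1, a rule that 204 of all 13397 genes met (1.52%). Both ratios use the contralateral day 1 library, so the choice of the lower genes itself raises this share and nothing is read from it. The remaining 28 were within 2-fold of the injured library at day 1. By a stricter rule, 41 genes (0.306%) stood at least 1 log2 unit above the highest of the other 7 libraries at contralateral day 1, and 22 of these are on a blood list. The division by the injured library was added after the values were seen. In these homogenised ganglia, fewer cells of a type and less RNA per cell cannot be told apart.

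The 40 listed genes had a median log2 ratio of -3.47 at day 3 and -3.10 at day 7 on the contralateral side, but 1.13 and 0.80 on the injured side. For 39 of the 40 the contralateral day 1 library was the highest of the 8, as for 1342 of all 13397 genes. The choice of lower genes sets the sign of the contralateral medians. It also raises this count and the day 1 level over no injury. Against the no-injury mean their median was 2.05 in the contralateral day 1 library and -1.41 in the injured day 1 library. Of the 40, 13 were at least 2-fold higher at both days on the injured side and 1 was lower. Putting the 2 genes with 0 reads at a later day at 3 reads left the contralateral medians as they were.

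Neutrophil genes led this group. Of 20 neutrophil precursor and granule genes with enough reads, 18 were at least 2-fold lower at both days, none was higher, and 19 were at their highest in contralateral day 1. The read filter raises these counts. The summed level of the 24 listed genes was 675, 73.6 and 115 CPM on the contralateral side at days 1, 3 and 7, 47.8, 135 and 112 CPM on the injured side, and 341 and 101 CPM in the left and right no-injury libraries. None of the 24 was at 0 reads in either day 1 library. S100a9, the calgranulin subunit, stood at 210, 18.4 and 31.9 CPM on the contralateral side, 9.81, 30.8 and 27.7 CPM on the injured side, and 111 and 28.8 CPM without injury. With the left no-injury library that high, S100a9 was not called (log2 -3.06 ± 0.94, adjusted p = 0.447).

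Genes of immature granulocytes were high in contralateral day 1 alone. Elane, neutrophil elastase, stood at 7.58, 0.190 and 0.234 CPM on the contralateral side, 0.0498, 0.464 and 0.425 CPM on the injured side, and 0.478 and 0.464 CPM without injury. It fell by 5.12 ± 0.38 on the log2 scale (adjusted p = 7.57e-05). Prtn3, proteinase 3, stood at 10.7, 0.618 and 1.03 CPM, and the other 5 libraries held 0.349 to 1.05 CPM (log2 -3.69 ± 0.33, adjusted p = 0.000339). Mpo, myeloperoxidase, stood at 24.0, 0.570 and 1.5 CPM, with 0.399 to 1.82 CPM elsewhere (log2 -4.53 ± 0.53, adjusted p = 0.0323).

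Red cell and B cell genes followed. Of 18 erythroid genes with enough reads, 11 were lower at both days and none higher, with medians of -2.45 and -2.91. Ermap, an erythroblast membrane protein, stood at 7.11, 0.238 and 0.561 CPM, with 0.472 to 1.24 CPM in the other 5 libraries (log2 -4.13 ± 0.41, adjusted p = 0.000676). Ctse, cathepsin E, stood at 8.93, 0.380 and 0.608 CPM, with 0.149 to 1.34 CPM elsewhere (log2 -4.16 ± 0.37, adjusted p = 0.000339). Haemoglobin, the main product of mature red cells, did not set day 1 apart in this way. Hbb-bs stood at 555, 225 and 471 CPM on the contralateral side, 257, 567 and 325 CPM on the injured side, and 222 and 388 CPM without injury. Igkc, the kappa light chain constant region, stood at 15.8, 0.713 and 0.654 CPM, against 2.14, 1.35 and 0.755 CPM on the injured side and 6.83 and 4.83 CPM without injury, and fell by 4.52 ± 0.31 (adjusted p = 7.41e-05).

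Lists of other blood cells were lower in part. Of 6 mast cell, basophil and eosinophil genes with enough reads 4 were lower at both days, of 5 B lineage genes 3, of 7 megakaryocyte genes 2 and of 10 progenitor genes 2. Neither T and NK cell gene with enough reads was past 2-fold. One of them, Thy1, is also on the pan-neuronal and the matrix and fibroblast lists, so it does not mark T cells here. No gene of the 7 lists was higher at both days. Members kept only through day 1, such as Epx at 2.9 CPM there and 0 and 0.0935 CPM later, could not have been. These list counts are thus in part set by the read filter, and nothing is read from them.

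**Figure D3:**
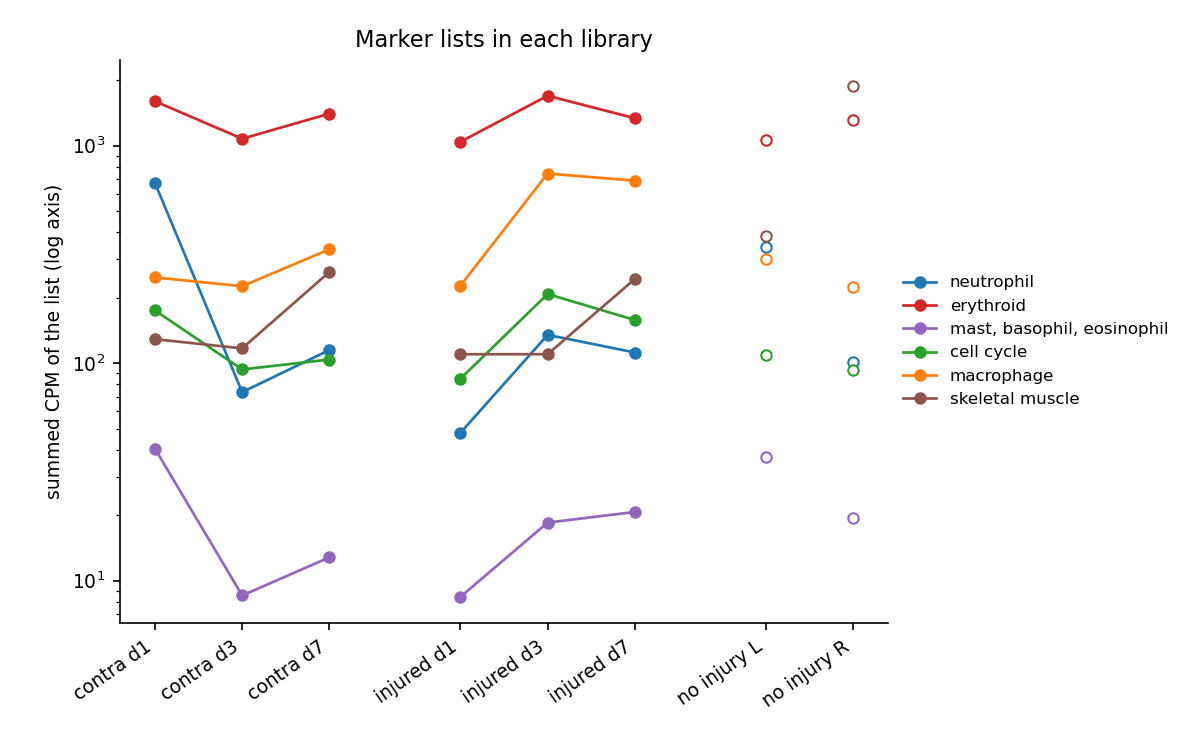
Summed CPM (log axis) of the genes of 6 lists in each library, with contralateral and injured sides joined over days 1, 3 and 7 and the no-injury libraries as open points. The neutrophil list stands at 675 CPM at contralateral day 1, at 73.6 CPM at day 3 and at 47.8 CPM in the injured day 1 library, while the muscle list is at its highest in the right no-injury library.

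The 68 unlisted genes were chosen by their high level in the contralateral and low level in the injured library at day 1, so the signs of their medians follow from that choice. As a description, their median log2 ratios were -2.29 and -1.64 on the contralateral side and 1.38 and 1.00 on the injured side, and 32 were at least 2-fold higher at both days on the injured side. They hold cell division genes such as Mki67 and Ube2c, and blood-cell genes outside the lists, such as the leukocyte GTPase Rac2, the immunoglobulin heavy chain Igha, and Kel and Rhd of the red cell membrane. Igha, Kel and Rhd fell (adjusted p = 0.0464, 0.00713 and 0.0104), Rhd not without the day 7 library (0.0631). Rac2 stood at 10.2, 1.90 and 3.27 CPM on the contralateral side, 1.94, 7.10 and 5.80 CPM on the injured side, and 5.59 and 4.41 CPM without injury (log2 -1.98 ± 0.28, adjusted p = 0.0104). Mmp13 and Acp5, which encode a collagenase and an acid phosphatase of bone, were among them too. They were the 2 of 7 bone and cartilage genes with enough reads that were lower at both days. That list's median log2 ratio was -0.57 at day 3 and 0.20 at day 7. Mmp13 stood at 4.96, 0.238 and 0.608 CPM, with 0.149 to 0.603 CPM in the other 5 libraries (log2 -3.53 ± 0.47, adjusted p = 0.00612).

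Cell division genes moved with the blood genes on the contralateral side. Of 26 cell cycle genes with enough reads, 8 were lower at both days and none higher, and the list's median log2 ratio was -1.0 at day 3 and -0.73 at day 7. Injured-side medians were 1.67 and 1.27, and 13 of the 26 were higher at both days. Mki67, a marker of dividing cells, stood at 21.8, 3.47 and 5.80 CPM on the contralateral side and 2.54, 15.5 and 8.92 CPM on the injured side, with 9.61 and 4.74 CPM without injury. It was not called (adjusted p = 0.367). Ube2c, a ubiquitin-conjugating enzyme of mitosis, was the 1 of 30 tested cell cycle genes that fell (log2 -1.76 ± 0.35, adjusted p = 0.0443). That call was lost without the day 3 library (0.168) or the day 7 library (0.115). The summed neutrophil, erythroid, and mast cell, basophil and eosinophil lists also fell on the contralateral side and rose on the injured side. The B lineage, T and NK cell, megakaryocyte and progenitor sums did not show both changes. The part of blood cells in the cell cycle genes was not tested.

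Once the listed genes and those 2-fold above the injured library at day 1 were set aside, 28 lower genes were left, which by this choice had day 1 levels within 2-fold of each other on the 2 sides or higher in the injured library. Their median log2 ratio was -1.51 at day 3 and -1.33 at day 7 on the contralateral side and -0.68 and -0.88 on the injured side. Against the no-injury mean the contralateral day 1 library had a median of 1.52 and the injured day 1 library 1.54. In 25 of the 28 the contralateral day 1 library was at least 2-fold above no injury, as in 259 of all 13397 genes (1.93%), and again the choice of lower genes raises that share. In 17 of the 28 the injured day 1 library was 2-fold above no injury, and in the other 11 it was not. Both injured-side ratios were below 0 for 21 of the 28, and 7 were at least 2-fold lower at both days there.

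Acute-phase proteins of the circulation were among them. Saa1, serum amyloid A, stood at 6.92, 1.05 and 0.280 CPM on the contralateral side, 24.9, 3.95 and 1.89 CPM on the injured side, and 0.143 and 0.0464 CPM without injury. Its day 1 level was the highest on each side, and its CPM ratio over day 1 was 0.0405 at contralateral day 7 (exact 95% interval 0.0146 to 0.0903). Saa1 was not called (adjusted p = 0.149). Lrg1, a leucine-rich glycoprotein of inflammation, stood at 9.12, 3.75 and 3.18 CPM, with 14.1, 12.9 and 4.39 CPM on the injured side. Itih3, a heavy chain of inter-alpha-trypsin inhibitor, stood at 9.68, 1.81 and 1.68 CPM on the contralateral side, 12.6, 2.00 and 1.98 CPM on the injured side, and 1.00 and 0.743 CPM without injury. It fell by 2.47 ± 0.23 (adjusted p = 0.000466), and its 2 sides were nearly alike at each day. Serpina3n, a protease inhibitor of the acute phase, fell by 0.68 ± 0.10 (adjusted p = 0.0103), from 452 CPM to 304 and 259 CPM. Of 10 acute-phase genes with enough reads 4 were lower at both days, and of these Lcn2 is also on the neutrophil list.

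Plin4, a lipid droplet coat protein, stood at 29.2, 3.42 and 10.4 CPM on the contralateral side, 26.1, 4.60 and 10.8 CPM on the injured side, and 1.10 and 2.27 CPM without injury. Its levels matched closely between sides at each day, and with days 3 and 7 apart it was not called (adjusted p = 0.575). Angptl4, a secreted inhibitor of lipoprotein lipase, stood at 38.3, 18.2 and 18.4 CPM, with 53.9, 43.5 and 28.0 CPM on the injured side. Etnppl, a phospholyase that breaks down phosphoethanolamine, stood at 17, 6.41 and 6.82 CPM, with 11.2, 6.13 and 6.51 CPM on the injured side and 1.19 and 1.67 CPM without injury (log2 -1.36 ± 0.18, adjusted p = 0.00566).

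Other genes of this group were Ltbp2, a binding protein of latent TGF-beta, and the olfactory receptor Olfr920. Ltbp2 stood at 15.3, 3.37 and 5.33 CPM on the contralateral side and 11.9, 3.81 and 3.59 CPM on the injured side, with 3.54 and 2.37 CPM without injury (log2 -1.81 ± 0.26, adjusted p = 0.0129). Olfr920 stood at 16.8, 3.75 and 5.52 CPM, with 21.1, 5.11 and 5.19 CPM on the injured side and 4.44 and 4.13 CPM without injury (log2 -1.86 ± 0.20, adjusted p = 0.00109). Il1r2, the decoy interleukin-1 receptor, stood at 4.44, 1.47 and 1.40 CPM. It is 1 of 3 glucocorticoid-responsive genes, of 20 with enough reads, that were lower at both days. The other two were Angptl4 and Lcn2, and the list's medians were 0.04 and -0.11.

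Neuronal lists stayed close to the median of all genes on the contralateral side. None of 30 nociceptor genes, 20 large-fibre neuron genes, 21 pan-neuronal genes or 38 potassium channel genes was past 2-fold at both days in either direction. The nociceptor medians were 0.13 and -0.07, against -0.61 and -0.41 on the injured side, and the potassium channel medians 0.04 and -0.07, against -0.56 and -0.50. Tac1, the substance P precursor, stood at 234, 222 and 203 CPM on the contralateral side and 336, 129 and 148 CPM on the injured side. Calcb, beta-CGRP, stood at 100, 84.7 and 74.6 CPM, against 125, 50.9 and 52.2 CPM. No gene of these 4 lists was called in the contralateral test. No member was past 2-fold at both days in the lists of immediate early, clock, hypoxia, interferon-induced, unfolded protein response, antigen presentation, chemokine, repair Schwann cell, central glia, mitochondrially encoded and sterol synthesis genes. In the sterol list 3 of 29 genes fell in the edgeR test and 1 rose. Among these Stard4, a cholesterol carrier, fell by 0.55 ± 0.07 (adjusted p = 0.00566), from 160 CPM to 111 and 107 CPM, with 238, 93.5 and 94.5 CPM on the injured side. Of 7 bone and cartilage genes 2 were lower at both days, and of 20 endothelial and mural cell genes 1 was higher.

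Of 20 macrophage genes with enough reads none was past 2-fold at both days, 3 were at least 2-fold lower at day 3 and 7 at least 2-fold higher at day 7. None was called in the contralateral test, and the medians were 0.15 and 0.70, against 1.96 and 1.69 on the injured side. Cx3cr1, the fractalkine receptor, stood at 2.85, 5.46 and 7.38 CPM on the contralateral side and 2.34, 15.1 and 20.8 CPM on the injured side. Myelinating Schwann cell genes had medians of 0.03 and 0.60, and 2 of 19 were past 2-fold at day 7.

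**Figure D4:**
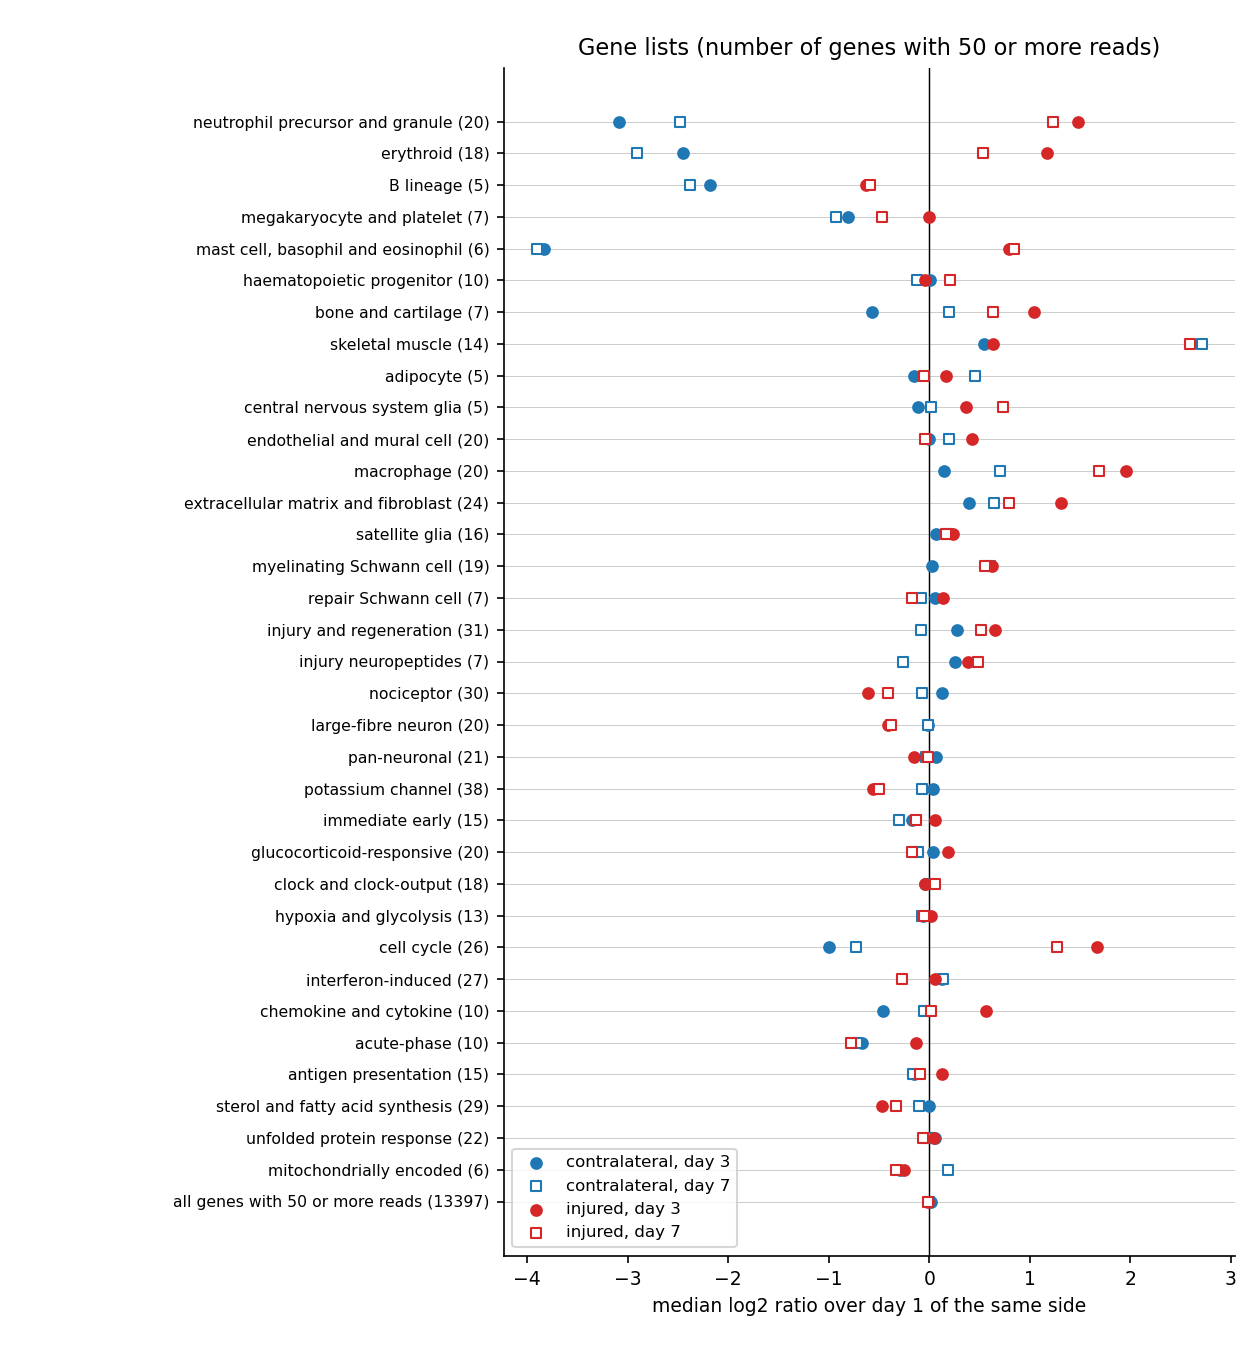
Median log2 ratio over day 1 of the same side for each gene list with at least 5 genes of enough reads, at day 3 (filled circles) and day 7 (open squares), contralateral in blue and injured in red, with the number of genes in brackets. Neutrophil, erythroid and cell cycle lists lie left of 0 on the contralateral side and right of it on the injured side, muscle lies at the same place on both, and the neuronal lists lie near 0 on the contralateral side.

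The 2 later days differed from each other in part. Of the genes past 2-fold in 1 direction on 1 day only, 99 were higher at day 7 and 15 at day 3, and 87 were lower at day 3 and 26 at day 7. Of the 99, 64 were at least 2-fold below no injury at day 1, 70 were also at least 2-fold higher at day 7 on the injured side and 10 are on the muscle list. Fabp7, a fatty acid binding protein of satellite glia, stayed under the 2-fold limit and was highest at day 3, with 114, 215 and 112 CPM on the contralateral side, 123, 197 and 93.4 CPM on the injured side, and 172 and 141 CPM without injury. Timp1, an inhibitor of matrix metalloproteinases, was low at day 7 alone, with 12.6, 9.12 and 3.97 CPM on the contralateral side, 46.0, 61.6 and 13.5 CPM on the injured side, and 1.29 and 1.72 CPM without injury. Per2, a clock gene, stood at 6.83, 10.7 and 15.7 CPM on the contralateral side and 6.68, 12.3 and 13.5 CPM on the injured side, against 12.2 and 12.3 CPM without injury. Fabp7 and Per2 had the same order of days on both sides, while Timp1 on the injured side was highest at day 3.

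The difference between the sides in the change from day 1 was tested directly, as the injured minus the contralateral log2 change with a block for each pool of mice. With edgeR, 128 of 17286 genes were higher (0.74%) and 114 lower (0.659%). The 128 had median contralateral log2 ratios of -0.82 and -0.69 and injured ones of 1.5 and 1.48. Of the 128, 68 were at least 2-fold higher in the contralateral than in the injured library at day 1. This test subtracts the day 1 difference between the sides, so the choice of the 128 raises that count and nothing is read from it. The choice also largely sets which side has the higher medians, here and for the 114 genes below. Car1, an erythroid carbonic anhydrase, differed by 5.35 ± 0.44 (adjusted p = 0.00376), with 5.24, 1.19 and 1.96 CPM on the contralateral side and 0.598, 5.90 and 8.83 CPM on the injured side. The 114 had contralateral medians of -0.05 and -0.11 and injured ones of -0.76 and -0.78, and in 112 of them the contralateral change was under 2-fold at both days. Tac1 differed by -1.14 ± 0.15 and Calcb by -0.94 ± 0.12 (adjusted p = 0.0175 for each). Among the 16 higher genes above no injury, only Nts was called, with a difference of 1.00 ± 0.17 (adjusted p = 0.0296). For the other 15 a p above the threshold does not show that the sides changed alike. Without the no-injury libraries 12 genes were higher and 0 lower with edgeR, and of the 128 and 114 only Car1 and Ctse remained (adjusted p = 0.0263 and 0.0469).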

How the data were processed

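RNA of whole pooled ganglia was sequenced for 8 libraries. The deposited values are raw read counts per gene, made by the authors with cutadapt 1.16, STAR 2.5.4a, featureCounts 1.6.3 and GRCm38, per the submitters' processing notes. Neither annotation release nor strand setting is stated in those notes or labels, so overlapping and antisense genes cannot be told apart. Symbols came from GENCODE M21 for 53706 of 53801 identifiers.

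Counts were scaled by TMM in edgeR 4.0.16 (R 4.3.3), with a prior count of 2 in log2 ratios. Genes with at least 50 reads in the highest contralateral library were compared. The 2 edgeR quasi-likelihood tests used genes that passed filterByExpr and an adjusted p of 0.05. The first took days 3 and 7 as 1 contralateral group, with 3 residual degrees of freedom. The second took each pool of mice as a block, since both sides came from the same mice, with 2. Both were tested on simulated data: false calls were near the nominal share where the simulated spread followed the trend with expression, and above it, more so for the second test, where each gene had its own spread. Alternatives were DESeq2 1.42.0, limma-voom 3.58.1, other scalings, read minimums and left-out libraries. CPM ratios have exact 95% intervals for counting error, and a count of 0 was bounded at 3 reads (about 0.14 CPM).

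The members and the 35 gene lists were chosen with earlier results of these data known. Genes were named by a rule: the largest changes at both days and at 1 day, the leading members of each list, the lowest p-values of each test, and 5 genes known from nerve injury. The names outside it were chosen after their values were seen: Gpr151, Kcnk16, Lmo7, Crh, Postn, Col15a1, Mpo, Rac2, Igha, Kel, Rhd, Serpina3n and the genes listed as members or next to the 2-fold limit.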

Additional observations from a re-analysis of the deposited data

Results flagged for a closer look

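The genes below are those named above whose change from day 1 differed between the sides in the edgeR test of that difference, given as injured minus contralateral log2 change ± SE. Genes of blood cells and the collagenase gene Mmp13 had a higher change on the injured side: Elane 8.14 ± 0.87, Ctse 6.69 ± 0.75, Car1 5.35 ± 0.44, Mmp13 5.07 ± 1.00, Prtn3 5.04 ± 0.60 and Rhd 4.99 ± 0.92. Ermap differed by 4.32 ± 0.74, Rac2 by 3.72 ± 0.46 and Igkc by 3.48 ± 0.48. The mitosis gene Ube2c differed by 4.56 ± 0.60, the macrophage gene Cx3cr1 by 1.76 ± 0.33 and the neuropeptide gene Nts by 1.00 ± 0.17. Cfd differed by -3.12 ± 0.62, Tac1 by -1.14 ± 0.15, Calcb by -0.94 ± 0.12 and Stard4 by -0.79 ± 0.11, with the lower change on the injured side. Adjusted p-values ran from 0.00376 for Car1 to 0.0447 for Cfd and Mmp13. Without the no-injury libraries only Car1 and Ctse of these 16 genes were still called, and Mmp13 was also lost without the day 3 pool (adjusted p = 0.0653). Each of these differences takes its contralateral day 1 level from 1 library.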

How the results depend on the processing

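The fold limits rest on single libraries, and depth limits the low genes. At 20 reads 99 genes were higher and 234 lower at both days (140 and 406 at day 3, 262 and 303 at day 7; injured side 492 higher), and at 200 reads 22 and 37 (27 and 56, 75 and 42; injured side 128 and 30). Without blood-list genes and those set apart at day 1, 77 were lower at both days and 102 at day 7. Without blood-list genes and those 2-fold above the injured library, a choice made after seeing the data, 28, 70 at day 3 and 49 at day 7 were. Against the no-injury mean 87 were higher and 55 lower at both days. In the contralateral test 68 rose and 55 fell with DESeq2, 24 of the 40 and 37 of the 76 among them, 24 rose and 83 fell with limma-voom, 25 and 89 without the no-injury libraries, and 342 rose and 382 fell with every gene that had a read. Leaving out day 3 or day 7 gave 45 to 84 that rose and 40 to 54 that fell. The side difference gave 35 higher and 44 lower genes with limma-voom, 447 and 465 with every gene, and 12 and 0 without the no-injury libraries. Leaving out a pool gave 249 to 553 higher and 205 to 500 lower. Without the replicate block, which pairs the sides by mice, 161 were higher and 164 lower, and 109 and 106 of the main calls were among them. The cause was not tested. At an unadjusted p under 0.05, 948 genes were higher and 906 lower in the contralateral test and 1111 and 1277 in the side difference. The 622 log2 ratios of single genes kept their direction with other size factors and with a prior count of 0.5. No named gene changed direction in these settings, but the balance of higher to lower counts turned in several. At both days it turned against the no-injury mean and without blood-list genes and those 2-fold above the injured library (49 higher, 28 lower). At day 7 it turned in that last setting (147 higher), without blood-list genes and those set apart (148 higher), and at 200 reads. In the contralateral test it turned with DESeq2, without day 3 and at the unadjusted p. In the side difference it turned with limma-voom, with every gene, without the replicate block and at the unadjusted p.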
